A study of Danio rerio with 45 samples.

Results

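The genes described here encode the subunits of the proteasome, including the catalytic subunits that are replaced in its immune forms. The members were all non-control probes whose target accession carries a gene symbol beginning with psma, psmb, psmc or psmd followed by a number. This rule found 97 probes for 47 genes among the 43603 non-control probes of the zebrafish array. It used the gene names and no measured value. The psmb8 to psmb13 type makes up 10 of these probes, for 6 genes (psmb9a, psmb10, psmb11a, psmb11b, psmb12 and psmb13a), and the other 87 probes represent 41 genes.

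The proteasome is the protease that degrades ubiquitin-tagged proteins. Its core is a barrel of alpha rings (psma genes) around beta rings (psmb genes), and only 3 kinds of beta subunit cut peptides. In most cells these are psmb6 (beta1, caspase-like), psmb7 (beta2, trypsin-like) and psmb5 (beta5, chymotrypsin-like). In mammals, interferon induces the alternative subunits PSMB9, PSMB10 and PSMB8, which take the places of PSMB6, PSMB7 and PSMB5 and change the peptides offered to MHC class I molecules, and PSMB11 takes the place of PSMB5 in the thymus. The regulatory particle caps the core, unfolds its substrates with a ring of ATPases (psmc genes) and binds and trims ubiquitin chains with its non-ATPase subunits (psmd genes). In fish, several of the alternative subunit genes lie beside MHC class I genes. In the RefSeq table (assembly GRCz12tu), psmb13a, psmb8a, psmb12 and psmb9a follow each other between mhc1uba and tap2a, psmb11a is next to psmb5, and psmb10 lies elsewhere. RefSeq lists psmb9a also as beta1ia, psmb10 as beta2i, psmb11a and psmb11b as beta5ta and beta5tb, psmb12 as beta1t and psmb13a as beta2ta. No probe carried an accession of psmb8a (0 probes), so no value of that subunit is given here.

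Total RNA came from pools of 20 whole embryos, each pool hybridized to 1 single-colour array, with 3 biological replicates a group. WT, dnmt3aa-/- and dnmt3bb.2-/- embryos were sampled at 5 stages (1-2 cell, the shield stage of gastrulation, 5-somite, and 1 and 2 days post fertilization, dpf), which gives 45 arrays. These mutants lack a de novo DNA methyltransferase, and the study describes its dnmt3aa-/- embryos as maternal-zygotic, without a functional copy in the mother or the embryo. The labels give neither the maternal genotype of the dnmt3bb.2-/- embryos nor the strain of any group, and they do not say how many parent pairs a pool came from. In RNA of whole embryos, fewer cells of a type and less RNA per cell cannot be told apart. Values are log2 signal scores, the log2 of the normalized signal intensities. They compare 1 probe between groups, not 1 probe with another.

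The dnmt3bb.2 probe was lower on the dnmt3bb.2-/- arrays at every stage, by 0.80, 2.06, 2.68, 2.09 and 0.88 on the log2 scale from 1-2 cell to 2 dpf, with adjusted p between 1.60e-06 and 0.00419 in limma. The dnmt3aa probe was higher on the arrays labelled dnmt3aa-/- at every stage, by 0.59, 0.95, 0.54, 0.62 and 0.79, with adjusted p between 0.000356 and 0.0123. Where this probe lies relative to the lesion is not known here, so it does not check that label. All dnmt3aa-/- arrays were on 4 slides of their own, scanned on a day of their own, so that slide, scan day and the dnmt3aa-/- genotype cannot be told apart. The WT and dnmt3bb.2-/- arrays were on 8 other slides, of which 6 held both genotypes, and at 5-somite no slide was shared. Between 62.3% and 84.5% of features were well above background per array, and no spot was saturated (0 spots). In dnmt3aa-/- replicate 1 of 1-2 cell, the summed signal of 12 muscle and lens probes was 54199, with 96.6% of it from the muscle actin gene actc1b. The other dnmt3aa-/- arrays of that stage were at 2049 and 1680. The part of this array in the results of that stage was tested only by leaving it out.

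Of the 97 member probes, 88 were well above background on all 45 arrays and 4 on none. The 4 undetected probes were psmb11a, psmb11b probe A, psmb11b probe B and psmb13a. Their log2 signal scores stayed between 1.9 and 4.0 on all arrays. They entered no test, and at this signal a level below the background cannot be read. The tested probes of the psmb8 to psmb13 type were therefore 6: psmb9a, psmb10 probes A, B and C, and psmb12 probes A and B.

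In WT embryos most proteasome probes rose from the 1-2 cell to the 5-somite stage and fell between 1 and 2 dpf, while psmb9a and psmb12 followed another course. From 1-2 cell to shield, 64 of 93 tested member probes were higher and 14 lower in limma (adjusted p-value ≤ 0.01), beside 34.3% higher and 41.5% lower of all tested probes. Their median log2 change was 0.58, against -0.07 over all probes. From shield to 5-somite 67 were higher and 8 lower, beside 41.4% and 29.9% of all probes, with medians of 0.60 and 0.19. From 5-somite to 1 dpf 39 were higher and 15 lower, beside 34% and 32.3%, a split that was 22 higher and 27 lower with 75th percentile scaling and 39 and 27 with normexp background correction. From 1 to 2 dpf 86 were lower and 1 higher, beside 27.7% lower and 30.7% higher of all probes, with medians of -0.55 and 0.09. The highest WT mean was at 1 dpf for 51 of the 97 member probes (52.6%) and at 5-somite for 29, beside 10.3% and 14.6% of all probes. The 97 include the 4 probes detected on no array, whose highest stage cannot be read. Among them, psmb13a is counted at 1 dpf and psmb11b probe B at 5-somite. The median range over the course was 1.45 on the log2 scale for members and 3.14 for all probes.

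**Figure D1:**
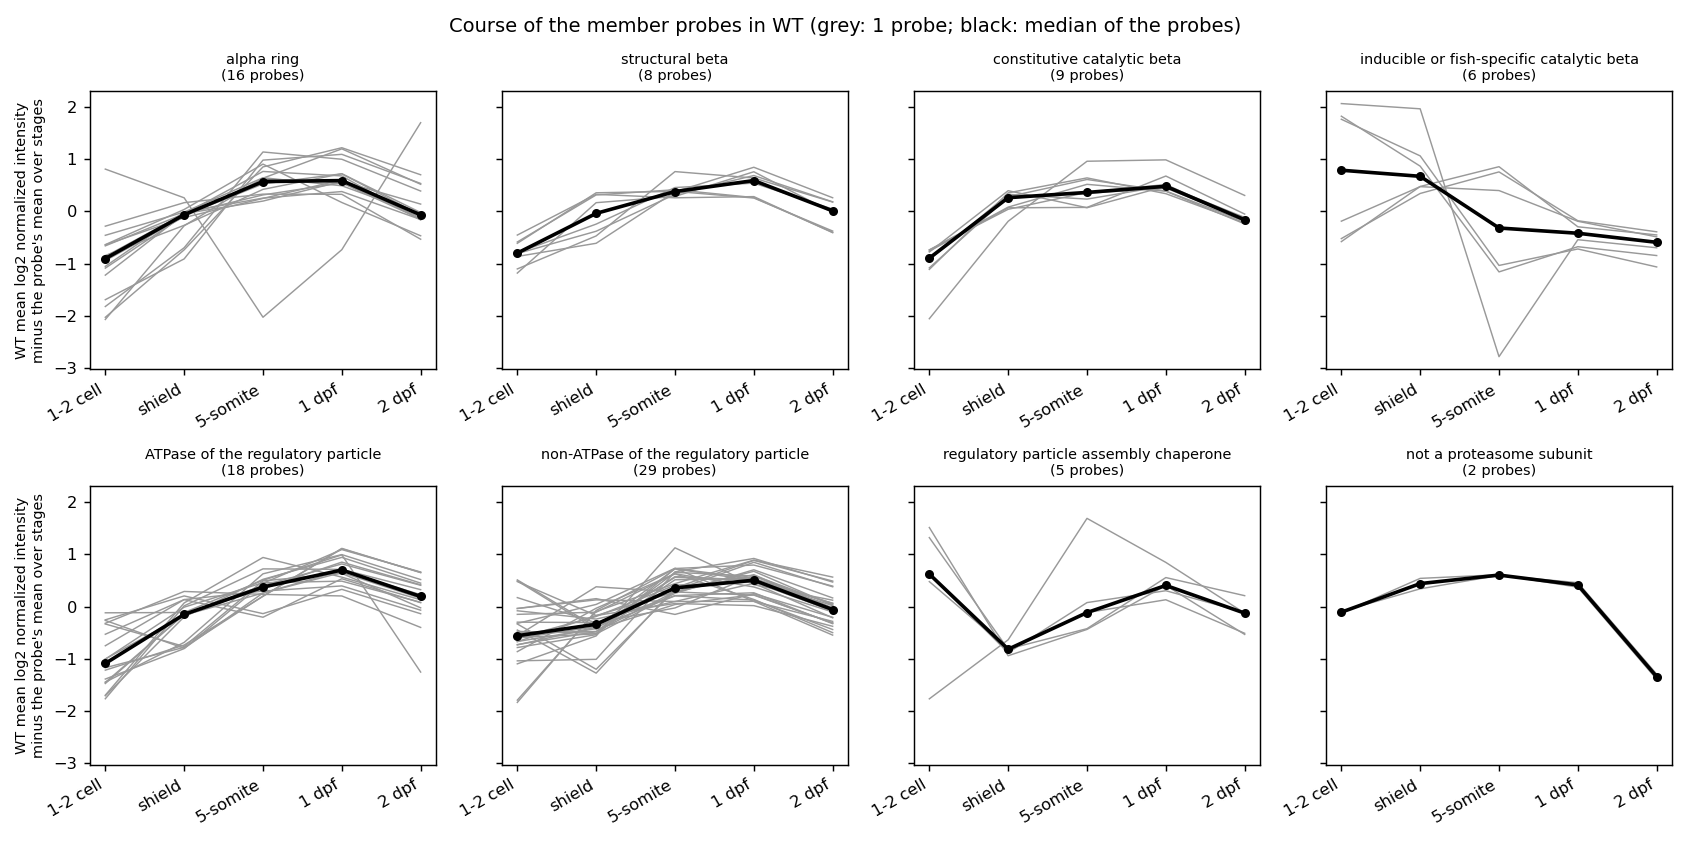
WT stage course of 93 member probes, 1 panel per role; the x axis is the stage and the y axis the log2 signal score minus the mean of that probe over the 5 stage means, each line is 1 probe and each point the mean of 3 arrays. Most lines rise to 5-somite or 1 dpf and fall at 2 dpf, while the psmb8 to psmb13 panel holds lines that fall between shield and 5-somite.

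Most probes of the core and the ATPase ring rose in the first step. From 1-2 cell to shield, 15 of 16 alpha ring probes, 7 of 8 structural beta probes, all 9 probes of psmb5, psmb6 and psmb7 and 15 of 18 ATPase probes were higher, beside 34.3% of all probes. Of the 29 non-ATPase probes, 12 were higher and 6 lower, and the highest WT mean of psmd11a and of both psmd12 probes was at 1-2 cell. The largest rises in that step were psmb6 (1.86), psma6b (1.79) of the alpha ring and psmc5 probe B (1.78) of the ATPase ring. The assembly chaperones of the cap went the other way at this step, with 4 of 5 probes lower. These were psmd10 probe B (-2.45), psmd10 probe A (-2.13), psmd5 probe A (-1.50) and psmd5 probe B (-1.29), while psmd9, the chaperone left, was the probe that rose most from shield to 5-somite (2.32). Between 1 and 2 dpf all 18 ATPase probes, all 29 non-ATPase probes and all 9 constitutive catalytic probes fell. The 1 probe that rose was psma6l, an alpha6-like gene, from 4.77, 5.03 and 5.40 to 7.46, 7.51 and 7.52, a log2 change of 2.43 (adjusted p = 6.04e-06 in limma). It had been at least 4.76-fold lower at 5-somite than at shield.

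The alternative subunits psmb9a and psmb12 had their highest WT mean at 1-2 cell and fell between shield and 5-somite, and psmb9a rose again by 1 dpf. The psmb9a probe read 8.31, 8.06 and 7.96 at 1-2 cell, 8.09, 7.79 and 8.15 at shield, and 3.09, 3.26 and 3.46 at 5-somite, where no array was well above background. It was at least 26.7-fold lower at 5-somite than at shield (adjusted p = 1.4e-09 in limma), and at 1 dpf (5.49, 5.64 and 5.39) at least 4.71-fold higher than at 5-somite (adjusted p = 2.9e-06). Both bounds use the probe's own 5-somite signal and equal the measured differences. They hold only as far as a signal not well above background can be read. The psmb12 probes fell in both of the first steps, by 0.70 and 2.09 for probe A and by 0.96 and 2.02 for probe B on the log2 scale, and then rose by 0.31 and 0.48 to 1 dpf. That rise of probe A was -0.16 with quantile scaling and -0.01 with normexp background correction. The third gene, psmb10, went with the constitutive subunits at first. Its probes A, B and C rose by 1.05, 0.86 and 0.66 from 1-2 cell to shield, and fell by 1.15, 0.93 and 0.59 from 5-somite to 1 dpf. Over these probes the groups of neighbouring stages did not overlap wherever a step was called, and the share of all called probes without overlap is not given here.

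Against WT, the clearest change over the whole set was a lower signal at 1-2 cell in both mutants. At 1-2 cell, 59 of 92 tested member probes were lower and 9 higher in dnmt3aa-/-, beside 28.8% lower and 28.5% higher of all tested probes. The median log2 change was -0.63 over the members and 0.02 over all probes. In dnmt3bb.2-/- 51 of 92 were lower and 3 higher, beside 16.3% and 15.1%, with medians of -0.54 and 0.01. Both comparisons use the same WT arrays, and the labels do not give the maternal genotype of the dnmt3bb.2-/- embryos. With normexp background correction, the dnmt3aa-/- count of 68 called probes was 38, and the median of all probes moved by 0.36.

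**Figure D2:**
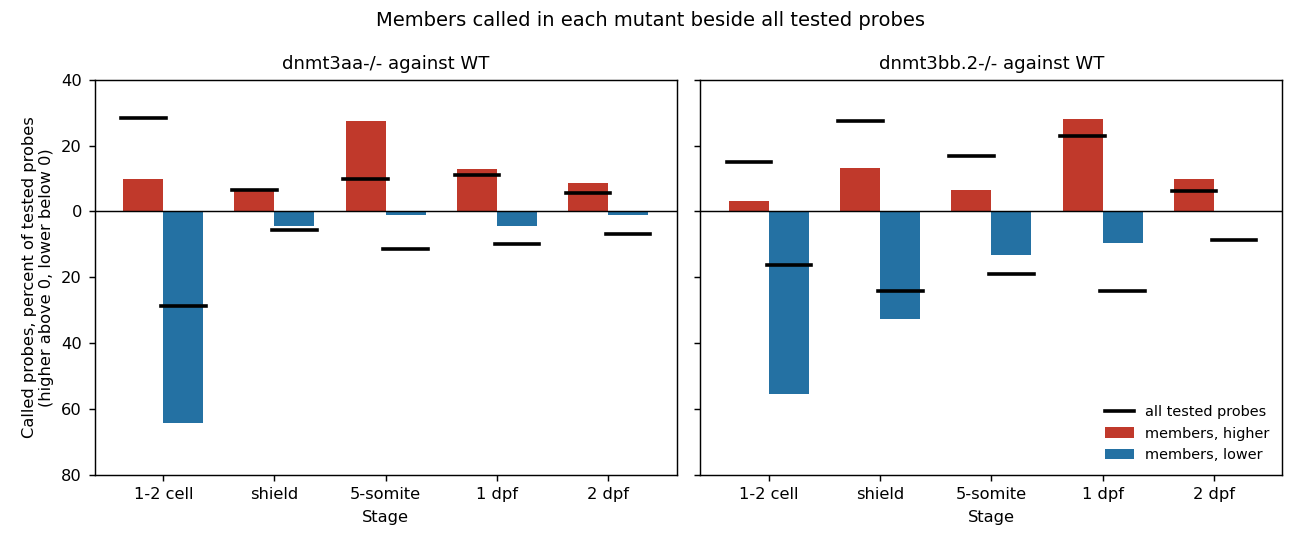
Percent of tested member probes called higher or lower than WT (x axis, stage; y axis, percent of tested probes, higher above 0 and lower below 0) in each mutant, with a black line for the percent of all tested probes called the same way. At 1-2 cell the lower bars, 59 and 51 of 92 probes, reach well past the lines at 28.8% and 16.3%.

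At shield, dnmt3aa-/- had 6 higher and 4 lower of 92, beside 6.59% and 5.68% of all probes, a share close to the background. At 5-somite 25 of 91 were higher and 1 lower, beside 9.82% and 11.5%, with medians of 0.33 for the members and -0.05 for all probes. A fit without 1 array has fewer degrees of freedom, so a call can end with little change in the log2 difference. The count of 26 at 5-somite changed with the arrays used. It was 63 without dnmt3aa-/- replicate 3, 4 without replicate 1, 8 without replicate 2, and 2, 2 and 4 without WT replicates 1, 2 and 3, and it was 0 with slide as a random block. At 1 dpf 12 of 93 were higher and 4 lower, beside 11% and 9.81%. Those 16 calls became 4 without any 1 of the WT arrays, 8 without dnmt3aa-/- replicate 2 and 25 without replicate 3. At 2 dpf 8 of 92 were higher and 1 lower, beside 5.69% and 6.9%, and these 9 calls were 21 with normexp background correction. The 10 calls at shield fell to 1 without any 1 of the WT arrays and 6 without dnmt3aa-/- replicate 2.

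In dnmt3bb.2-/- at shield, 12 of 92 member probes were higher and 30 lower, beside 27.4% and 24.1% of all probes (6 and 31 with 75th percentile scaling). At 5-somite 6 of 91 were higher and 12 lower, beside 16.9% and 18.9%. At 1 dpf 26 of 93 were higher and 9 lower, beside 22.8% and 24.1%. At 2 dpf 9 of 92 were higher and 0 lower, beside 6.31% and 8.61%, with medians of 0.30 for the members and -0.06 for all probes. With slide as a fixed term the 42, 35 and 9 calls at shield, 1 dpf and 2 dpf were 20, 19 and 1, and the count at 1-2 cell is not given here. All 54, 42, 35 and 9 called probes of the 4 stages with shared slides had the same direction within the shared slide. This had to follow, because their mutant and WT values did not overlap, so it is no check on slide. The 18 calls at 5-somite were 8, 8 and 9 without WT replicates 1, 2 and 3 and 10 and 8 without dnmt3bb.2-/- replicates 2 and 3. The 35 at 1 dpf were 22, 21 and 22 without a WT array and 20 and 21 without dnmt3bb.2-/- replicates 2 and 3, and the 9 at 2 dpf were 1 to 5 without any single array and 19 with normexp. For every called member probe in these 10 comparisons the 3 mutant and 3 WT values did not overlap. The share of all called probes without overlap is not given here, so this is not read as a trait of the members.

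**Figure D3:**
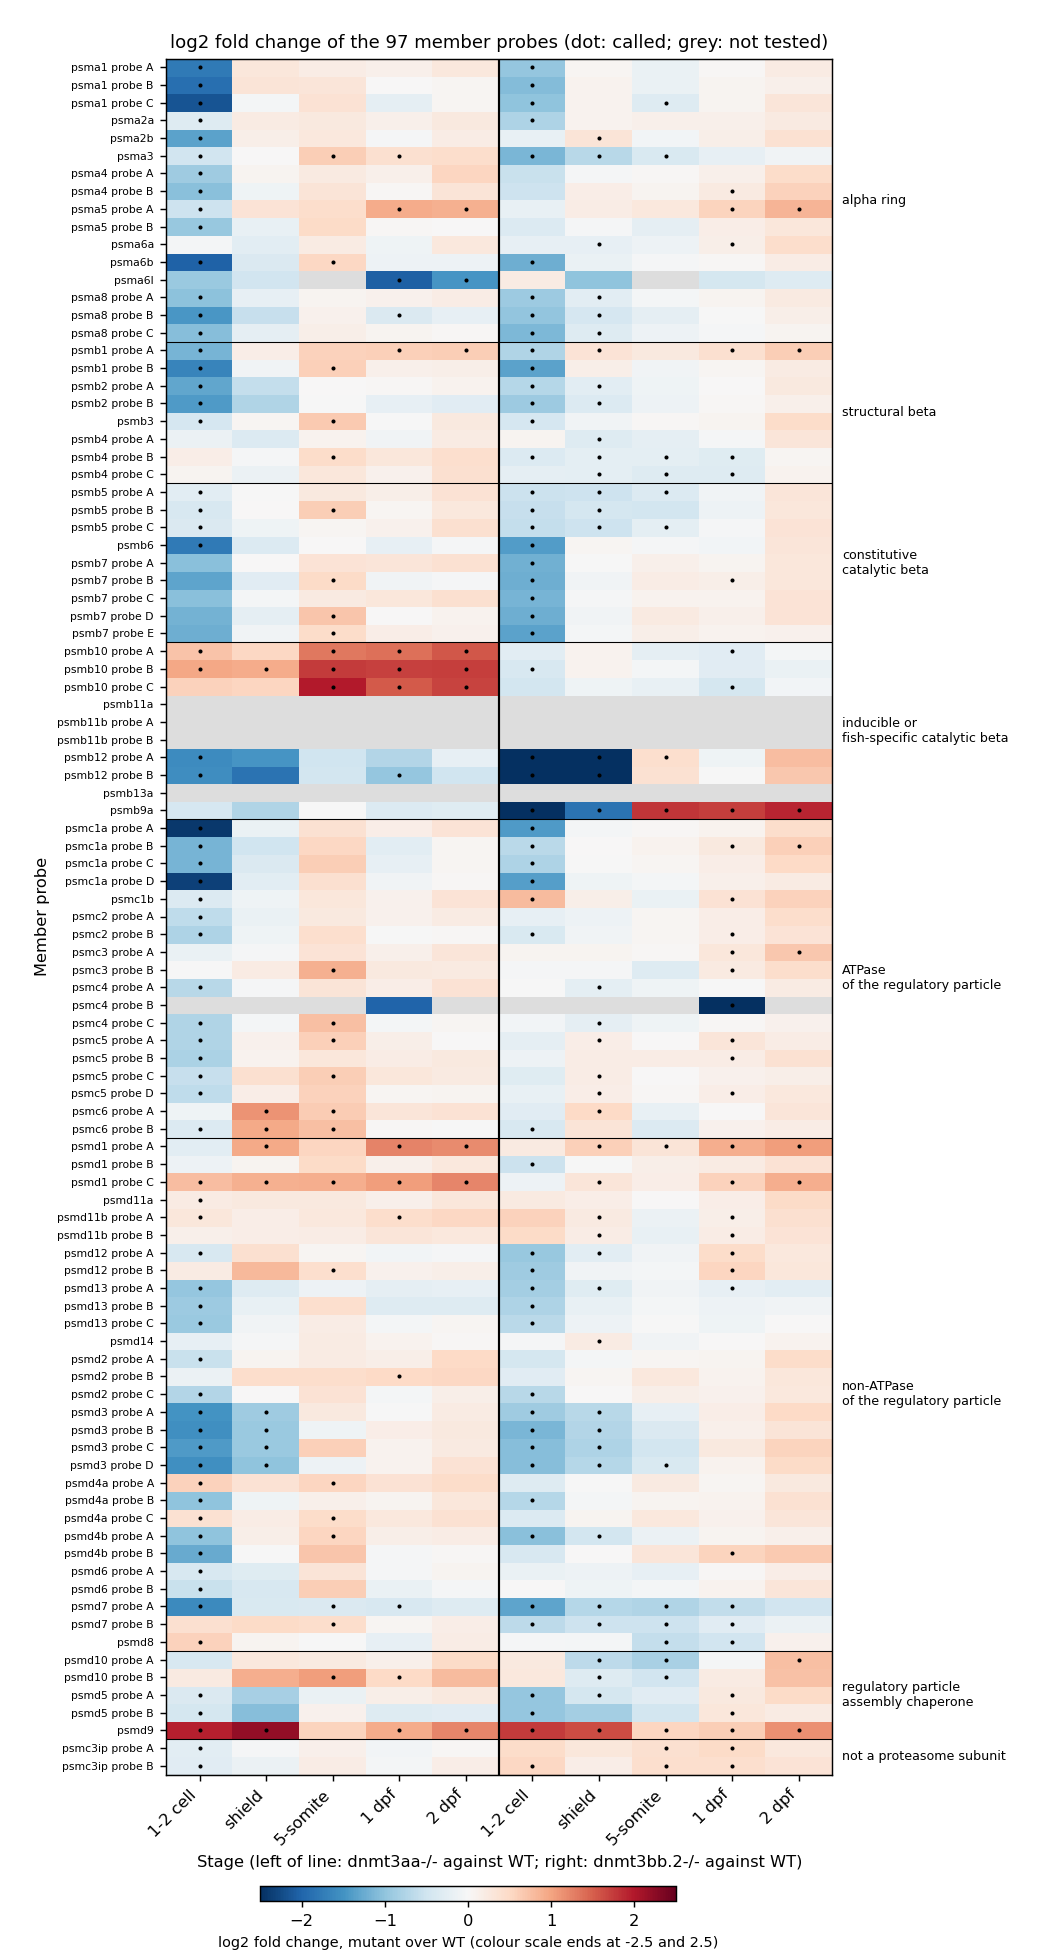
Log2 fold change of the 97 member probes (rows, grouped by role) in the 10 comparisons with WT (columns), with blue lower and red higher in the mutant, a colour scale that ends at -2.5 and 2.5, a dot for an adjusted p-value of at most 0.01 in limma and grey for probes not tested. The 1-2 cell columns of both mutants are mostly blue, and psmb10 stays red down the dnmt3aa-/- columns.

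Of the catalytic genes, psmb10 was higher in dnmt3aa-/- at all stages. On probe B, WT replicates 1 to 3 read 8.70, 8.80 and 8.79 at 1-2 cell, 9.56, 9.57 and 9.74 at shield, 10.05, 10.02 and 10.04 at 5-somite, 9.02, 9.08 and 9.21 at 1 dpf, and 8.90, 8.97 and 8.81 at 2 dpf. The dnmt3aa-/- arrays read 9.59, 9.66 and 9.91, then 10.72, 10.52 and 10.43, then 11.99, 12.06 and 11.33, then 11.27, 10.43 and 10.73, and at 2 dpf 10.58, 10.63 and 10.67. At each of the 5 stages the 3 dnmt3aa-/- values lay above the 3 WT values. The log2 differences of probe B were 0.96 ± 0.10 (SE), 0.93 ± 0.12, 1.75 ± 0.21, 1.71 ± 0.22 and 1.74 ± 0.09 in stage order, with adjusted p of 0.00051, 0.00489, 0.00243, 0.00322 and 0.000245 in limma. The value at 2 dpf is a 3.34-fold difference.

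The other psmb10 probes gave the same direction. Probe A was higher by 0.70, 0.52, 1.31, 1.37 and 1.55 in stage order, called at all but shield (adjusted p = 0.0134). Probe C was higher by 1.99 at 5-somite, a 3.97-fold difference, by 1.52 at 1 dpf and 1.69 at 2 dpf, and by 0.58 and 0.54 at 1-2 cell and shield, where adjusted p was 0.0101 and 0.0243. At 2 dpf all 3 probes kept the call without any 1 of the 6 arrays, and at 1-2 cell probes A and B did. The middle stages held less firmly. The call of probe B ended at shield without any 1 of the WT arrays or dnmt3aa-/- replicate 2 (log2 difference 0.90 to 0.99, adjusted p 0.0135 to 0.0329), at 5-somite without any 1 of the WT arrays or dnmt3aa-/- replicate 1 (1.66 to 1.76, adjusted p 0.0112 to 0.0155), and at 1 dpf without any 1 of the WT arrays (1.67 to 1.76, adjusted p 0.0162 to 0.0194). Probe A lost its call at 5-somite without any 1 of the WT arrays or dnmt3aa-/- replicates 1 or 2 (1.18 to 1.33) and at 1 dpf without any 1 of the WT arrays (1.36 to 1.37), and probe C at 5-somite without any 1 of the WT arrays (1.93 to 2.06) and at 1 dpf without any 1 array other than dnmt3aa-/- replicate 1 (1.47 to 1.73). With slide as a random block at 5-somite, probes A, B and C had adjusted p of 0.0644, 0.0272 and 0.0288. On all 3 probes dnmt3aa-/- replicate 3 at 5-somite was below replicates 1 and 2, with 11.33 against 11.99 and 12.06 on probe B.

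In dnmt3bb.2-/- psmb10 was at or a little below the WT level. Its probe B read 8.38, 8.43 and 8.25 at 1-2 cell, below all WT arrays, with a log2 difference of -0.41 ± 0.07 (adjusted p = 0.00715 in limma). This call ended with slide as a fixed term (adjusted p = 0.047) and without any 1 array other than dnmt3bb.2-/- replicate 2 (-0.44 to -0.36). At 1 dpf probes A and C were lower by 0.28 and 0.45 on the log2 scale (adjusted p = 0.00404 and 0.00191), and with slide as a fixed term these had adjusted p of 0.0243 and 0.0227. The call of probe A at 1 dpf ended without any 1 of the WT arrays or dnmt3bb.2-/- replicates 2 or 3 (-0.29 to -0.25).

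**Figure D4:**
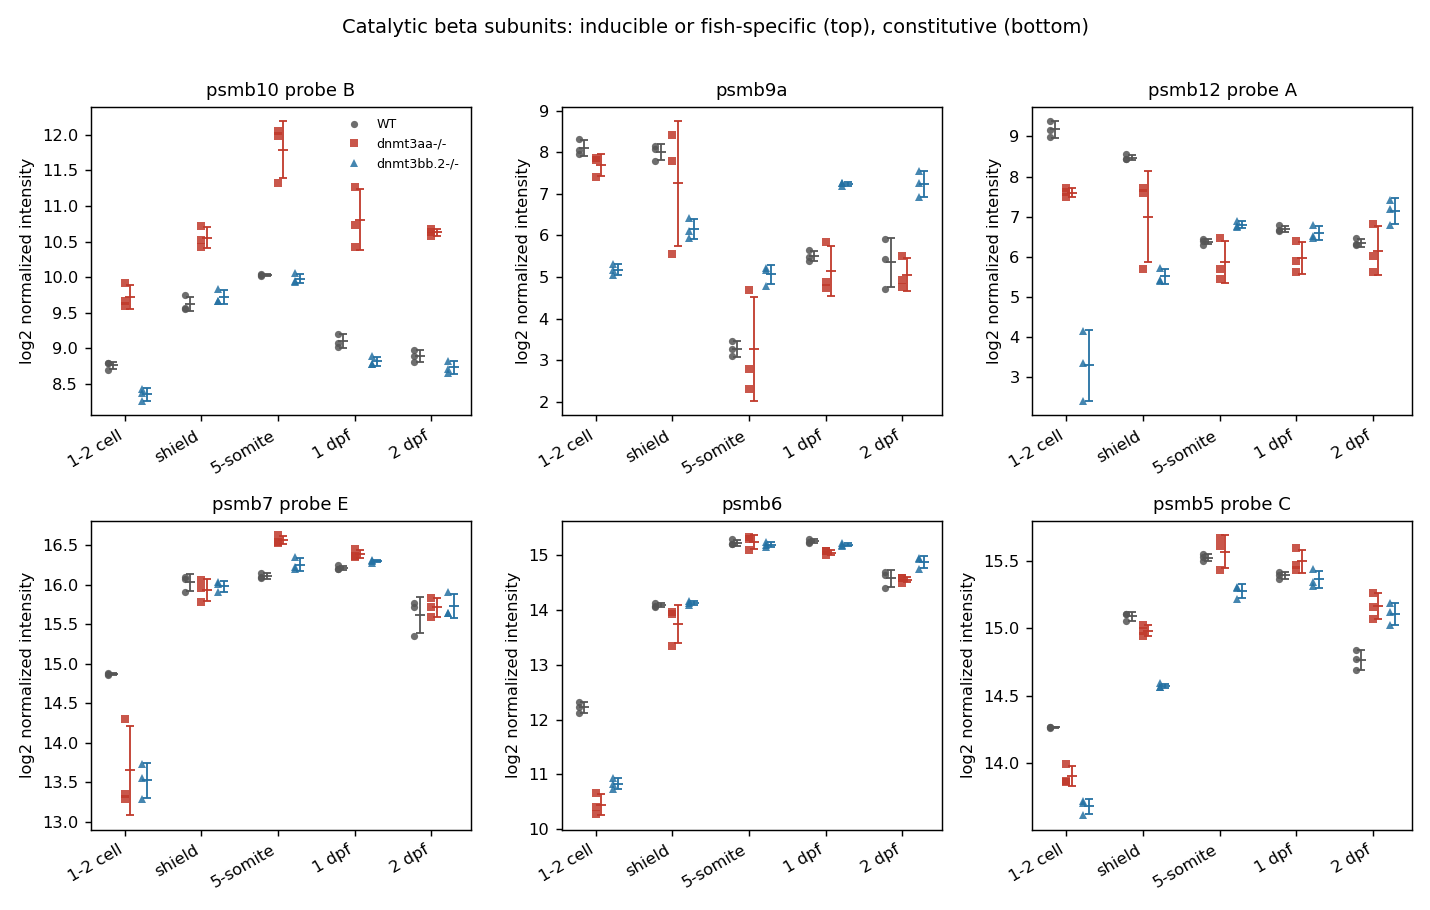
Log2 signal score (y axis) of each array at 5 stages (x axis) for psmb10 probe B, psmb9a, psmb12 probe A, psmb7 probe E, psmb6 and psmb5 probe C; points are arrays, bars are the mean ± SD of 3 arrays and colours the genotypes. The dnmt3aa-/- points of psmb10 lie above WT at every stage, and the dnmt3bb.2-/- points of psmb9a and psmb12 lie far below WT at 1-2 cell and shield.

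The alternative beta1 subunits psmb9a and psmb12 gave a far lower signal in the early dnmt3bb.2-/- embryos. Whether the probes in this MHC region match the alleles of all 3 lines equally well is not known here, so a difference on them, and on the neighbouring MHC class I and transporter probes, is one of hybridization signal and is not shown to be one of transcript level. The psmb12 probe A read 9.38, 8.98 and 9.16 in WT at 1-2 cell and 4.15, 2.39 and 3.34 in dnmt3bb.2-/-, where no array was well above background. It was at least 40.4-fold lower (adjusted p = 0.000402 in limma), and probe B, with 9.04, 8.91 and 9.07 against 3.87, 2.36 and 2.53, was at least 38.3-fold lower (adjusted p = 0.000279). Such a bound sets each mutant array to its lowest signal among probes well above background, or to the probe's own signal where that is higher. At shield probe A read 8.44, 8.43 and 8.55 in WT and 5.72, 5.42 and 5.39 in dnmt3bb.2-/-, a 7.80-fold difference (log2 difference -2.96 ± 0.10, adjusted p = 1.46e-05). Probe B differed by -3.01 ± 0.09 (adjusted p = 9.96e-06), with 1 of 3 mutant arrays well above background.

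From 5-somite on, the dnmt3bb.2-/- psmb12 values were near those of WT. Probe A was at 6.73, 6.76 and 6.89 at 5-somite, above the WT values of 6.30, 6.44 and 6.40, by 0.42 ± 0.07 (adjusted p = 0.00424 in limma), and probe B was not called (0.38, adjusted p = 0.0977). The call of probe A ended with normexp background correction (0.13, adjusted p = 0.0643) and without any 1 of the WT arrays or dnmt3bb.2-/- replicates 2 or 3 (0.37 to 0.45). At 2 dpf the probes were 0.78 and 0.67 above WT with adjusted p of 0.0179 and 0.0424. The change between stages was not itself tested.

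The psmb9a probe crossed over in the same embryos, from below WT to above it. At 1-2 cell it read 8.31, 8.06 and 7.96 in WT and 5.32, 5.17 and 5.05 in dnmt3bb.2-/-, a 7.62-fold lower signal (log2 difference -2.93 ± 0.12, adjusted p = 6.29e-05 in limma). At shield dnmt3bb.2-/- read 6.43, 6.11 and 5.93, a difference of -1.85 ± 0.16 (adjusted p = 0.000277). At 5-somite, where WT was not well above background, the mutant read 5.18, 5.22 and 4.79 and was at least 3.46-fold higher (adjusted p = 0.000359, and 0.16 on the log2 scale with adjusted p = 0.0156 under normexp). This bound equals the measured difference, and the probe entered this test through the mutant arrays alone.

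By 1 dpf the psmb9a difference was clear in the upward direction. The probe read 7.27, 7.26 and 7.18 in dnmt3bb.2-/- and 5.49, 5.64 and 5.39 in WT, a 3.32-fold higher signal (log2 difference 1.73 ± 0.07, adjusted p = 2.48e-05 in limma). At 2 dpf it read 6.92, 7.26 and 7.55 against 5.43, 5.90 and 4.72, a difference of 1.89 ± 0.32 (adjusted p = 0.00707). The values did not overlap at any of the 5 stages. The 2 dpf call ended with slide as a fixed term (2.52, adjusted p = 0.0109) and without any 1 array other than WT replicate 2 (1.58 to 2.06, adjusted p 0.0103 to 0.0272). Within the slides that held both genotypes, psmb9a differed by -2.79, -1.99, 1.76 and 2.52 at the 4 stages that had such slides (all but 5-somite), and psmb12 probe A by -3.04, -0.22 and 0.85 at shield, 1 dpf and 2 dpf. At 1-2 cell psmb12 probe A was at least 32.6-fold lower on the 1 mutant array of the shared slide.

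In dnmt3aa-/- the psmb12 probes were lower at 1-2 cell, with 7.71, 7.60 and 7.49 on probe A and 7.49, 7.44 and 7.46 on probe B. The log2 differences were -1.57 ± 0.12 (adjusted p = 0.000211 in limma) and -1.55 ± 0.05 (adjusted p = 1.91e-05), a 2.97-fold lower signal for probe A. They kept their calls without any 1 array, but under normexp background correction they were -0.69 and -0.46 with adjusted p of 0.168 and 0.321. At shield replicate 1 read 5.69 on probe A while replicates 2 and 3 read 7.59 and 7.71, all below WT, and neither probe was called (-1.48 and -1.85, adjusted p = 0.0963 and 0.161). At 1 dpf probe B was lower by 0.97 on the log2 scale (adjusted p = 0.00877), a call that ended under normexp (-0.23, adjusted p = 0.0335) and without any 1 array other than dnmt3aa-/- replicate 3 (-1.06 to -0.82). The psmb9a probe was called at no stage in dnmt3aa-/-, with log2 differences of -0.41, -0.76, -0.35 and -0.29 at the stages other than 5-somite, where no WT array and 1 dnmt3aa-/- array were well above background.

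The constitutive catalytic subunits were mostly lower than WT at 1-2 cell, with few and small differences later. The psmb6 probe read 12.13, 12.22 and 12.31 in WT at 1-2 cell, 10.40, 10.28 and 10.66 in dnmt3aa-/- and 10.83, 10.93 and 10.73 in dnmt3bb.2-/-. It was 3.42-fold lower in dnmt3aa-/- (log2 difference -1.78 ± 0.12, adjusted p = 0.000116 in limma) and 2.63-fold lower in dnmt3bb.2-/- (-1.39 ± 0.09, adjusted p = 0.00019). After that stage psmb6 was called in no comparison with WT.

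All 5 psmb7 probes were lower in dnmt3bb.2-/- at 1-2 cell, by 1.15 to 1.34 on the log2 scale. Probe E read 14.87, 14.88 and 14.86 in WT, 13.73, 13.29 and 13.56 in dnmt3bb.2-/-, and 13.29, 13.35 and 14.30 in dnmt3aa-/-. In dnmt3aa-/- the 5 probes differed by -1.33 to -1.04 with adjusted p of 0.0102 to 0.0346, and none was called. Without dnmt3aa-/- replicate 3, which lay above the other replicates, probe E differed by -1.55. This array is singled out because of its value, so the fit without it is not read as a call.

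The psmb5 differences were smaller and the most even between replicates. Probe C read 14.27, 14.27 and 14.26 in WT, 13.87, 13.87 and 13.99 in dnmt3aa-/- and 13.71, 13.72 and 13.61 in dnmt3bb.2-/- at 1-2 cell. Probes A, B and C were lower by 0.26, 0.40 and 0.36 on the log2 scale in dnmt3aa-/- and by 0.53, 0.58 and 0.59 in dnmt3bb.2-/-, all called. At shield they were still lower in dnmt3bb.2-/-, by 0.51, 0.44 and 0.51 (adjusted p = 0.000203, 0.000204 and 0.000138 in limma). The dnmt3bb.2-/- calls of psmb5 probes A and B at 1-2 cell ended without any 1 of the WT arrays (-0.59 to -0.52), and that of probe A in dnmt3aa-/- without any 1 array other than dnmt3aa-/- replicate 3 (-0.27 to -0.23).

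At 5-somite 4 of the 9 constitutive catalytic probes were higher in dnmt3aa-/-. These were psmb5 probe B (0.61, adjusted p = 0.00304 in limma) and psmb7 probes B (0.48), D (0.70) and E (0.46). Each of these calls ended without any 1 array other than dnmt3aa-/- replicate 3 (0.44 to 0.76). In dnmt3bb.2-/- psmb5 probes A and C were lower at 5-somite by 0.33 and 0.25 on the log2 scale (adjusted p = 0.00806 and 0.00878), calls that were lost without most single arrays (probe A -0.38 to -0.33 without any 1 array other than dnmt3bb.2-/- replicate 1, probe C -0.27 to -0.22 without any 1 array). The 1 later call was psmb7 probe B at 1 dpf in dnmt3bb.2-/-, higher by 0.15 (adjusted p = 0.00984) and lost without any 1 array (0.13 to 0.16).

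Counted by group, 2 of the 6 tested psmb8 to psmb13 type probes were higher and 2 lower in dnmt3aa-/- at 1-2 cell, against 0 higher and 4 lower of the 9 constitutive catalytic probes, beside 28.5% and 28.8% of all probes. At shield the counts were 1 higher and 0 lower of 6 against 0 and 0 of 9, at 5-somite 3 and 0 against 4 and 0, at 1 dpf 3 and 1 against 0 and 0, and at 2 dpf 3 and 0 against 0 and 0. The shares of all probes at those stages were 6.59% and 5.68%, 9.82% and 11.5%, 11% and 9.81%, and 5.69% and 6.9%. In dnmt3bb.2-/- they were 0 higher and 4 lower of 6 against 0 and 9 of 9 at 1-2 cell, 0 and 3 of 6 against 0 and 3 of 9 at shield, 2 and 0 of 6 against 0 and 2 of 9 at 5-somite, 1 and 2 of 6 against 1 and 0 of 9 at 1 dpf, and 1 and 0 of 6 against 0 and 0 of 9 at 2 dpf. All probes there gave 15.1% higher and 16.3% lower, 27.4% and 24.1%, 16.9% and 18.9%, 22.8% and 24.1%, and 6.31% and 8.61%. The 3 psmb10 probes measure 1 transcript, as do the 5 psmb7 probes, so these counts are not independent.

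Within an array, the log2 ratio of psmb10 probe B to psmb7 probe E was higher in dnmt3aa-/- than in WT by 2.18, 1.03, 1.30, 1.53 and 1.64 from 1-2 cell to 2 dpf. In dnmt3bb.2-/- this ratio differed from WT by 0.94, 0.14, -0.20, -0.37 and -0.27. At 1-2 cell both ratios also hold the lower psmb7 probe E signal of the mutants. There psmb10 probe B alone was higher by 0.96 in dnmt3aa-/- and was below WT in dnmt3bb.2-/-. The ratio of psmb9a to psmb6 differed in dnmt3bb.2-/- by -1.54 and -1.89 at 1-2 cell and shield and by 1.80 and 1.59 at 1 and 2 dpf. At 5-somite, with WT psmb9a not well above background, it was at least 3.55-fold higher, a bound equal to the measured difference. The ratio of psmb12 probe A to psmb6 was at least 15.4-fold lower in dnmt3bb.2-/- at 1-2 cell, and differed by -3.01, 0.45, -0.03 and 0.48 from shield to 2 dpf. The psmb9a and psmb12 ratios of dnmt3aa-/- are not given here. With 3 arrays against 3, the two-sided exact permutation test cannot give a p below 0.1, so none of these ratios can pass the threshold.

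A direct fit compared the mutants with each other, without the WT arrays. It reused the mutant arrays of the comparisons with WT and was chosen after seeing the data, so it is not a separate check. In dnmt3aa-/- psmb10 probe B was above dnmt3bb.2-/- by 1.37, 0.84, 1.81, 1.99 and 1.89 from 1-2 cell to 2 dpf, called at all 5 stages in limma, and probes A and C at 4 (all but shield). The psmb9a probe was 2.52 higher in dnmt3aa-/- at 1-2 cell (adjusted p = 0.000343) and 2.08 and 2.19 lower on the log2 scale at 1 and 2 dpf (adjusted p = 0.0043 and 0.0029). The psmb12 probes A and B were at least 13.6-fold and 13.1-fold higher in dnmt3aa-/- at 1-2 cell (adjusted p = 0.00152 and 0.00106). Over the set, 14 of 92 member probes were higher in dnmt3aa-/- and 21 in dnmt3bb.2-/- at 1-2 cell, beside 27.8% of all probes called either way. The counts were 5 and 0 of 92 at shield (13.7% of all probes), 24 and 0 of 91 at 5-somite (20.5%), 7 and 9 of 92 at 1 dpf (21.9%) and 3 and 1 of 92 at 2 dpf (11.4%). All dnmt3aa-/- arrays had their own slides, so slide and genotype cannot be told apart here.

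Some of the genes that lie near psmb9a and psmb12 also differed in dnmt3bb.2-/-, in both directions. The tapbp.2 gene, a tapasin that loads MHC class I molecules with peptide, was lower on its probes A, B and C by 0.65, 0.50 and 0.58 on the log2 scale at shield, 1.80, 0.97 and 1.00 at 5-somite, and 3.58, 1.54 and 1.56 at 2 dpf, where 1, 1 and 3 of the 3 mutant arrays were well above background. At 1 dpf probes A and B were at least 24.9-fold and 6.18-fold lower. The MHC class I gene mhc1uba (probe C) was at least 18.8-fold, 10.9-fold, 36.8-fold and 32.7-fold higher from shield to 2 dpf, with no WT array well above background. The transporter gene tap2a was at least 15.04-fold lower on probe B at shield. Further along, hsd17b8, an enzyme of steroid and fatty acid metabolism, was higher at all 5 stages, by 0.73, 1.34, 2.26, 1.58 and 0.65. The 7 probes of brd2a, which lies between tap2a and hsd17b8, and the other probes of mhc1uba and tap2a are not given here. In dnmt3aa-/-, tap2a probe B was at least 6.47-fold lower at shield and mhc1uba probe C at least 3.29-fold higher at 1 dpf.

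Most alpha ring and structural beta probes were lower in both mutants at 1-2 cell. At 1-2 cell, 14 of 16 alpha ring probes were lower in dnmt3aa-/- and 9 of 16 in dnmt3bb.2-/-, beside 28.8% and 16.3% of all probes, with median log2 changes of -1.03 and -0.85 and 0 higher in either. The psma6b probe read 9.53, 9.53 and 9.59 in WT and 7.48, 7.31 and 7.79 in dnmt3aa-/-, a log2 difference of -2.02, and psma1 probe C differed by -2.15. Of the 8 structural beta probes, 5 and 6 were lower, with medians of -0.79 and -0.56. At shield in dnmt3bb.2-/- 5 of 16 alpha ring and 5 of 8 structural beta probes were lower, beside 24.1% of all probes, and in dnmt3aa-/- 0 of either, beside 5.68%.

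Some of these probes were lower at 1-2 cell and higher later. The psmb1 probe A, a structural beta subunit, was lower by 1.15 on the log2 scale at 1-2 cell in dnmt3aa-/- and higher by 0.59 at 1 dpf and 0.61 at 2 dpf. In dnmt3bb.2-/- the same probe was lower by 0.75 at 1-2 cell and higher by 0.35, 0.40 and 0.61 at shield, 1 dpf and 2 dpf. The dnmt3bb.2-/- calls ended at 1-2 cell without any 1 of the WT arrays (-0.76 to -0.74) and at 2 dpf without any 1 array (0.52 to 0.67). Probe B of psmb1 was lower by 1.65 at 1-2 cell and higher by 0.59 at 5-somite in dnmt3aa-/-. At 1 and 2 dpf it was called higher in neither mutant, so the later rise rests on probe A. The psma5 probe A was lower by 0.52 at 1-2 cell in dnmt3aa-/- and higher by 0.92 at 1 dpf and 0.89 at 2 dpf, and in dnmt3bb.2-/- higher by 0.56 and 0.85 at those last stages. Probe B of psma5 was called higher in neither mutant at 1 or 2 dpf. Other probes stayed low in dnmt3bb.2-/-. The psma3 probe was lower by 1.14, 0.69 and 0.39 on the log2 scale at the first 3 stages, and psmb4 probe B by 0.35, 0.25, 0.25 and 0.30 at 4 stages. The psmb4 calls ended without any 1 array at 5-somite, without any 1 array but dnmt3bb.2-/- replicate 2 at 1-2 cell and shield, and without any 1 array but replicate 1 of either group at 1 dpf (-0.37 to -0.22).

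The alpha6-like gene psma6l, the only member to rise in WT at 2 dpf, was lower in dnmt3aa-/- at that stage. It read 6.06, 5.97 and 6.02 against 7.46, 7.51 and 7.52 in WT, a 2.79-fold lower signal (log2 difference -1.48 ± 0.08, adjusted p = 0.000308 in limma), and the call held without any 1 array. At 1 dpf it was at least 3.22-fold lower (adjusted p = 0.00685), with 2.38, 3.52 and 3.19 against 4.77, 5.03 and 5.40 and no mutant array well above background. That call ended under normexp (adjusted p = 0.0431) and without any 1 of the WT arrays or dnmt3aa-/- replicate 2. It was called at no stage in dnmt3bb.2-/-, where it read 6.57, 7.14 and 7.81 at 2 dpf.

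Of the ATPase probes, 14 of 17 tested were lower in dnmt3aa-/- at 1-2 cell and 6 of 17 in dnmt3bb.2-/-, where 1 was higher, beside 28.8% and 16.3% of all probes lower. The member with the lowest log2 change in dnmt3aa-/- at that stage was psmc1a probe A, with 12.32, 12.36 and 12.47 in WT and 9.94, 9.70 and 10.27 in dnmt3aa-/-, a 5.32-fold lower signal (log2 difference -2.41 ± 0.15, adjusted p = 0.000109 in limma). Probe D of the same gene differed by -2.33, and probes B and C by -1.16 each. In dnmt3bb.2-/- probe A read 10.99, 10.77 and 11.12, a difference of -1.42. Its paralogue psmc1b was the ATPase probe that was higher in dnmt3bb.2-/- at that stage (0.78), a call lost without any 1 of the WT arrays (0.76 to 0.79). At shield psmc6 probes A and B were higher in dnmt3aa-/- by 1.13 and 0.95, and probe A lost its call without any 1 of the WT arrays (1.102 to 1.172). At 1 dpf 8 of 18 ATPase probes were higher and 1 lower in dnmt3bb.2-/-, beside 22.8% and 24.1%. The lower probe was psmc4 probe B, at 1.64, 1.98 and 1.99 against 4.67, 4.19 and 4.52. It was at least 4.3-fold lower (adjusted p = 8.04e-05 in limma), while the other psmc4 probes were not lower. Over the whole series, psmc4 probe B was well above background on only 3 arrays, and against WT it was tested only at 1 dpf. This call therefore rests on a dim probe and is not read as a decrease of psmc4.

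Among the 29 non-ATPase probes, 16 were lower and 6 higher in dnmt3aa-/- at 1-2 cell, and 15 lower and 0 higher in dnmt3bb.2-/-. Of all probes, 28.8% were lower and 28.5% higher in dnmt3aa-/- and 16.3% and 15.1% in dnmt3bb.2-/-. The gene psmd1, a scaffold of the cap, stood against this direction. Its probe C read 10.47, 10.53 and 10.51 in WT at 1-2 cell and 11.20, 11.27 and 11.33 in dnmt3aa-/-, and at 2 dpf 11.38, 11.39 and 11.28 against 12.51, 12.66 and 12.54. It was higher at all 5 stages, by 0.76, 0.89, 0.91, 1.04 and 1.22, with adjusted p between 0.000105 and 0.00685 in limma. The shield call ended without any 1 array other than dnmt3aa-/- replicate 1 (0.79 to 0.90), and the 5-somite value had adjusted p = 0.0229 with slide as a random block. In dnmt3bb.2-/- probe C was higher by 0.29, 0.58 and 0.91 at shield, 1 dpf and 2 dpf. The shield call ended without WT replicate 2 (0.27), and with slide as a fixed term the shield and 2 dpf calls had adjusted p of 0.0306 and 0.0165. The 2 dpf call also ended without WT replicates 1 or 2 (0.92 and 0.93).

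The psmd1 probes did not all do the same. Probe A was higher in dnmt3aa-/- at shield, 1 dpf and 2 dpf (0.96, 1.23 and 1.17), a shield call lost without any 1 of the WT arrays (0.94 to 0.97), but lower by 0.26 at 1-2 cell without being called. In dnmt3bb.2-/- probe A was higher by 0.60, 0.32, 0.91 and 1.04 from shield to 2 dpf. Its 5-somite call ended without any 1 array other than dnmt3bb.2-/- replicate 2 (0.30 to 0.33) and its 2 dpf call without any 1 of the WT arrays or dnmt3bb.2-/- replicate 1 (1.03 to 1.06). Probe B was called at no stage in dnmt3aa-/- and only at 1-2 cell in dnmt3bb.2-/-, where it was lower by 0.55 on the log2 scale. The probes of 1 gene are given apart for this reason.

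The gene psmd7 was lower at 4 stages in dnmt3bb.2-/-. Probe A read 13.53, 13.60 and 13.56 in WT and 12.38, 12.03 and 12.33 in dnmt3bb.2-/- at 1-2 cell, and 14.51, 14.51 and 14.48 against 13.79, 13.81 and 13.76 at shield. The log2 differences were -1.32, -0.71, -0.76 and -0.62 from 1-2 cell to 1 dpf, and -0.48 at 2 dpf without a call. Probe B was lower at the same stages, by 0.65, 0.51, 0.52 and 0.28 on the log2 scale. Its calls ended without any 1 of the WT arrays at 1-2 cell (-0.66 to -0.63), and at 1 dpf without any 1 array other than dnmt3bb.2-/- replicate 2 (-0.30 to -0.23). In dnmt3aa-/- probe A differed by -1.59 at 1-2 cell, -0.36 at 5-somite and -0.40 at 1 dpf, and probe B was higher by 0.43 at 5-somite. Probe B was also above dnmt3bb.2-/- in dnmt3aa-/-, by 1.04 at 1-2 cell and 0.99 at shield. Both gaps exceed those of dnmt3bb.2-/- below WT, so at 1-2 cell the psmd7 probes went opposite ways in dnmt3aa-/-. The later calls of probe A ended without any 1 array other than dnmt3aa-/- replicate 3 (-0.42 to -0.35). All 4 psmd3 probes were lower at shield in both mutants, by 0.89 to 1.01 in dnmt3aa-/- and 0.69 to 0.77 in dnmt3bb.2-/- on the log2 scale. In dnmt3aa-/- the calls of probes B, C and D ended without any 1 of the WT arrays, and those of B and C also without dnmt3aa-/- replicates 1 or 2 (-1.02 to -0.89).

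The assembly chaperone psmd9, which helps the base of the cap to form, was higher in both mutants throughout. WT arrays read 10.035, 10.141 and 10.001 at 1-2 cell and 11.23, 11.18 and 11.16 at shield. The dnmt3aa-/- arrays read 11.99, 12.04 and 11.98, then 13.24, 13.38 and 13.56, and the dnmt3bb.2-/- arrays 11.86, 11.75 and 11.83, then 12.78, 12.86 and 12.80. No mutant array overlapped with WT at any stage. The log2 differences in dnmt3aa-/- were 1.94, 2.20, 0.56, 0.92 and 1.21 in stage order, called in limma at all stages but 5-somite (adjusted p = 0.0104). The shield value is a 4.61-fold difference.

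In dnmt3bb.2-/- psmd9 was higher by 1.75, 1.63, 0.53, 0.61 and 1.13, called at all 5 stages with adjusted p between 6.48e-06 and 0.00212. The value at 1-2 cell is a 3.37-fold difference. All called values of psmd9 kept their call without any 1 array, and within the shared slides the dnmt3bb.2-/- differences were 1.80, 1.66, 0.69 and 1.26. Against each other, the mutants differed in psmd9 by 0.03 to 0.58, with no call at any stage. The comparisons of both mutants share the same probe and the same WT arrays, so they are not independent. The labels do not give the strain of the WT or the mutants. Other chaperones moved unevenly. The psmd10 probe B was higher in dnmt3aa-/- at 5-somite (1.04), and probe A was lower in dnmt3bb.2-/- at 5-somite (-0.80) and higher at 2 dpf (0.76).

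**Figure D5:**
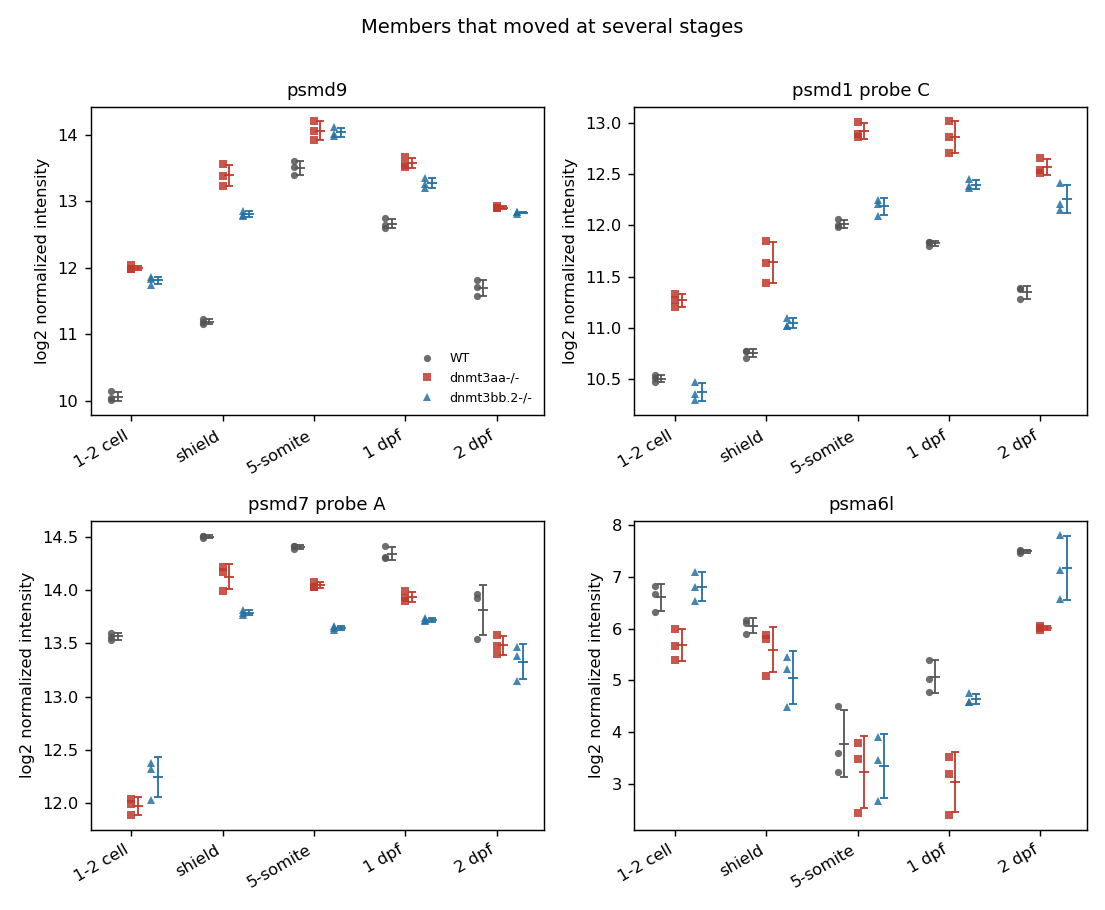
Log2 signal score (y axis) of each array at 5 stages (x axis) for psmd9, psmd1 probe C, psmd7 probe A and psma6l; points are arrays, bars are the mean ± SD of 3 arrays and colours the genotypes. Both mutants lie above WT for psmd9 at every stage, and for psma6l at 2 dpf all dnmt3aa-/- points lie below WT, while the dnmt3bb.2-/- points, at 6.57, 7.14 and 7.81, span the WT values.

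The gene psmc3ip meets the naming rule but encodes a partner of a recombinase cofactor and no proteasome subunit. Its probes A and B were lower at 1-2 cell in dnmt3aa-/-, while in dnmt3bb.2-/- probe B was higher at 1-2 cell, 5-somite and 1 dpf (0.51, 0.43 and 0.42), a call lost at 1-2 cell without any 1 of the WT arrays or dnmt3bb.2-/- replicate 3 (0.48 to 0.54). Of the 93 member probes tested at 1 stage or more, 6 were higher and 1 lower at 3 or more stages in dnmt3aa-/-, which is 6.45% and 1.08%, beside 4.58% and 4.04% of all probes. In dnmt3bb.2-/- 6 were higher and 9 lower, which is 6.45% and 9.68%, beside 9.37% and 9.30%. Called at no stage were 12 of the 93 in dnmt3aa-/- (12.9%) and 11 in dnmt3bb.2-/- (11.8%), beside 35.3% and 26.2% of all probes. Of the members, 88 of 97 were well above background on all 45 arrays, and this share of all probes is not given here. The shares called at no stage are therefore not read as a trait of the members. In dnmt3aa-/- the median absolute log2 change was 0.74 over members and 0.58 over all probes at 1-2 cell. It was 0.22 and 0.43 at shield, 0.36 and 0.39 at 5-somite, and 0.14 and 0.32 at 1 dpf.

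Genes that work with the proteasome are given by their counts in stage order, to be read against the shares of all tested probes. In dnmt3aa-/- these were 28.5%, 6.59%, 9.82%, 11% and 5.69% higher and 28.8%, 5.68%, 11.5%, 9.81% and 6.9% lower from 1-2 cell to 2 dpf. In dnmt3bb.2-/- they were 15.1%, 27.4%, 16.9%, 22.8% and 6.31% higher and 16.3%, 24.1%, 18.9%, 24.1% and 8.61% lower. Of the probes for regulators, activators and assembly factors of the proteasome, 9 of 31, 0 of 29, 5 of 29, 2 of 29 and 3 of 29 were higher in dnmt3aa-/- and 14, 1, 1, 2 and 0 lower. In dnmt3bb.2-/- 3 of 31, 9 of 28, 4 of 29, 4 of 31 and 4 of 30 were higher and 6, 4, 5, 8 and 0 lower. The gene psme1 encodes a subunit of the interferon-inducible activator PA28. At 5-somite its probes averaged 11.97 and 11.20 in dnmt3aa-/- against 8.40 and 7.67 in WT, higher by 3.58 ± 0.39 and 3.53 ± 0.48 (adjusted p = 0.0019 and 0.0037 in limma). At this stage slide as a random block left 0 of the member calls, and its part in the psme1 values was not tested. In dnmt3bb.2-/- 1 psme1 probe was higher by 1.15 at that stage and the other was not called. The core chaperone psmg1 was lower in dnmt3bb.2-/- at 5-somite on both probes, by 5.94 and 1.38 on the log2 scale, which differ by far more than the replicate error (SE 0.14 and 0.05).

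The MHC class I and interferon lists moved in both directions. Of the MHC class I presentation probes, 8 of 21, 0 of 24, 0 of 25, 3 of 24 and 1 of 26 were higher in dnmt3aa-/- from 1-2 cell to 2 dpf and 3, 1, 1, 2 and 1 lower. In dnmt3bb.2-/- 6 of 25, 14 of 27, 4 of 26, 7 of 26 and 3 of 28 were higher and 0, 6, 8, 6 and 6 lower. The gene b2m, the light chain of MHC class I, was higher by 2.41 and 2.08 in dnmt3aa-/- at 1-2 cell on 2 of its 3 tested probes (1.59 on the third, not called), and the 3 probes of the class I gene mhc1zba were lower by 2.15, 2.04 and 2.89 on the log2 scale.

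Of the interferon probes, 3 of 24, 1 of 23, 6 of 27, 2 of 27 and 0 of 26 were higher in dnmt3aa-/- and 9, 2, 1, 0 and 4 lower, with psmb10 higher at all of these stages. The interferon-response genes gbp1 and irf7 were lower at 1-2 cell by 2.58 and, on 2 probes, by 2.07 and 2.47, while 2 of 3 mxc probes were lower, with 0 and 1 of the 3 mutant arrays well above background, and the third differed by 0.00. In dnmt3bb.2-/- 3 of 24, 9 of 25, 10 of 27, 5 of 23 and 1 of 23 were higher and 10, 6, 5, 4 and 4 lower. At shield, where 9 of 25 were higher, psmb9a lay below WT. It lay above WT at 5-somite, 1 dpf and 2 dpf, where 10 of 27, 5 of 23 and 1 of 23 were higher. A link between these counts and psmb9a was not tested. Of 49 probes for ubiquitin and its enzymes, 7, 0, 3, 3 and 1 were higher and 13, 2, 3, 5 and 5 lower in dnmt3aa-/-, and 1, 8, 5, 7 and 1 higher and 9, 14, 10, 18 and 5 lower in dnmt3bb.2-/-.

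Leukocyte markers differed too, and are given because leukocytes express the immune subunits in mammals. Their counts, and those of the oocyte, muscle and lens probes below, are to be read against the shares of all tested probes given above. The summed normalized signal of 18 leukocyte probes was 156257 to 158899 in dnmt3aa-/- at shield against 76768 to 81505 in WT, and 34340 to 57136 against 20765 to 22839 at 5-somite. Of these 18 probes, 12 were well above background on no array at shield in WT, and 12 in dnmt3aa-/-. At shield 3 of 6 tested were higher, from lcp1 (1.08 and 1.07) and cxcr4b (0.85), which other cells of that stage also express, while the neutrophil gene mpx and the macrophage gene mpeg1.1 were not tested there because they were not well above background. At 5-somite 2 of 9 tested were higher, both of them probes of lcp1 (1.12 and 1.70). Not called there were spi1b (-0.63 and -0.21), coro1a (-0.51 and -0.72), mpeg1.1 (0.66), cxcr4b (0.12) and lyz (0.26). At 1 dpf 5 of 15 were higher, from spi1b (0.80), mpeg1.1 (0.97 and 1.02), lcp1 (0.62) and cxcr4b (0.73), and 1 lower, from ikzf1 (-1.07). Not called but below WT were lyz (-1.32) and the neutrophil gene mpx (-1.11, -0.89 and -1.01). The other lcp1 and spi1b probes differed by -0.01 and 0.15, and the median over the list was -0.10. The summed signal was 12901 to 14357 in dnmt3aa-/- against 11791 to 12462 in WT, at a stage when psmb10 was higher. At 2 dpf 2 of 15 were higher, both probes of mpeg1.1 (1.23 and 1.35), and the summed signal was 19555 to 30146 in dnmt3aa-/- and 20452 to 23742 in WT. In dnmt3bb.2-/- at 1 dpf, when psmb9a was higher, the sum was 8363 to 11355 against 11791 to 12462 in WT, with 1 higher and 2 lower of 15. The higher probe was of ikzf1 (0.61) and the lower ones of cxcr4b (-0.19) and spi1b (-0.41). At 1-2 cell 2 of 5 were lower, from coro1a (-1.41) and cxcr4b (-1.76). At shield 3 of 6 were higher, from lcp1 (0.63 and 0.47) and cxcr4b (0.39), and 2 lower, both from coro1a (-1.50 and -1.21). At 5-somite 2 of 8 were lower, from spi1b (-0.95) and lyz (-1.44), and 0 higher. At 2 dpf 1 of 15 was higher, from lcp1 (0.89), and 0 lower. The part of these cells in the psmb10 and psmb9a differences was not tested. Of 8 oocyte probes, 3 were higher and 1 lower in dnmt3aa-/- and 0 and 2 in dnmt3bb.2-/- at 1-2 cell. Of 7 tested muscle and lens probes, 0 were called in dnmt3aa-/- at 1-2 cell and 1 was higher at shield. In dnmt3bb.2-/- 2 were higher at 1-2 cell, both from the lens crystallin gene crybb1, and 4 at shield, from crybb1 on 3 probes and actc1b (1.58), and 0 were lower. The actc1b probes differed from WT by -2.63, -2.52 and -1.39 at 1-2 cell, without a call. At both stages psmb9a and psmb12 were lower, and a link between these marker signals and those differences was not tested. At 1 dpf 2 of 12 tested muscle and lens probes were lower in dnmt3aa-/- and 0 higher, both from the lens gene cryaa (-1.45 and -1.50). In dnmt3bb.2-/- 3 cryaa probes were lower there (-2.41, -2.85 and -2.34) and 2 actc1b probes higher (0.20 and 0.31). At 2 dpf 1 of 12 was lower in dnmt3aa-/-, from actc1b (-0.59), and 0 were called in dnmt3bb.2-/-. A link between these signals and the member differences of those stages was not tested.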

How the data were processed

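Cy3-labelled cRNA of 45 RNA pools was hybridized to single-colour Agilent zebrafish arrays. Per the labels and the study's methods, the images were read with Agilent Feature Extraction 12.0.3.1, and the deposited array files hold, as processed signal intensity, values that are background-subtracted and spatially detrended, beside raw spot and background intensity and other columns of flags (0 or 1). The authors then scaled each array so that its trimmed mean, without the lowest and highest 2% of probes, was 2500, and their deposited value table holds this normalized signal intensity on a linear scale. The array design predates current annotation, and accessions were named through RefSeq, which gave 26421 probes a single symbol (13633 symbols).

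From the processed signal the same scaling was recomputed for 43603 non-control probes and log2 was taken. Each mutant was compared with WT per stage by lmFit and eBayes in limma 3.58.1 (R 4.3.3, data.table version 1.17.8) on the 6 arrays of the comparison, and WT stages in 1 model of 15 arrays. Tested probes had a positive processed signal on at least 2 arrays of each group and were well above background on at least 1 array of the fit. p-values were adjusted by Benjamini-Hochberg over all tested probes, and an adjusted p-value of at most 0.01 was called. Errors are standard errors of the fit or SD of 3 arrays. Array-to-array spread, and for dim probes the signal over background, limits the precision, and the number of arrays is small. Summaries and plots used Python 3.11.15, numpy 2.4.6, pandas 2.3.3 and matplotlib 3.10.9. The fit was checked on simulated data.

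Named are all probes of the psmb8 to psmb13 type and of psmb5, psmb6 and psmb7, per comparison 3 further member probes at each end of the log2 changes, out of those called whose groups did not overlap, and probes called the same way at 3 or more stages in 1 mutant. Not every probe that meets this rule is written out. From the lists of proteasome regulators, MHC class I presentation, interferon response, ubiquitin enzymes, and leukocyte, muscle, lens and oocyte markers, up to 3 genes are named. The members and lists were chosen with earlier results of these data known. Alternatives tried were the authors' value table, 75th percentile and quantile scaling, normexp background correction with an offset of 50, no filter, a stricter filter, a replicate block, slide as a block, and each array left out. Sequences were not used here.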

Additional observations from a re-analysis of the deposited data

Results flagged for a closer look

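Some probes lay on opposite sides of WT at different stages of 1 mutant, with all 3 arrays above WT at 1 stage and all 3 below at another. The difference between the stages was not tested, and each value below is the log2 difference from WT at the first stage minus that at the second. The share of all probes that lay on opposite sides is not given here, so the list is not read as a trait of the members. In dnmt3bb.2-/- the gap was at least 5.75 for psmb12 probe A between 5-somite and 1-2 cell, where the mutant was not well above background and its bound was used, and 4.82 for psmb9a between 2 dpf and 1-2 cell. Against 1-2 cell, the gap in dnmt3bb.2-/- was 1.37 for psmb7 probe B, 0.54 for psmc2 probe B, 1.40 and 1.42 for psmd12 probes A and B and 1.21 and 1.25 for psmd5 probes A and B at 1 dpf, and 1.36 for psmb1 probe A and 1.26 for psmc1a probe B at 2 dpf. It was 1.56 for psmd10 probe A between 2 dpf and 5-somite and 0.35 for psma6a between 1 dpf and shield. Some of the differences above WT were small, with 0.14 for psma6a and 0.15 for psmb7 probe B at 1 dpf. That psmb7 call was lost when any 1 array was left out.

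In dnmt3aa-/- the gap between 5-somite and 1-2 cell was 2.54 for psma6b, 2.25 for psmb1 probe B, 1.54 for psmd4b probe A, 1.499 for psmc4 probe C, 1.34 and 1.19 for psmc5 probes A and C, 1.09 for psma3, 1.08 for psmb3 and 1.01 for psmb5 probe B. It was 1.29 for psmc6 probe B at shield, 1.45 for psma5 probe A at 1 dpf and 1.76 for psmb1 probe A at 2 dpf, each against 1-2 cell. The dnmt3aa-/- member calls at 5-somite did not hold with slide as a random block, and leaving out 1 array gave 2 to 63 of them.

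In data outside the comparisons, the summed muscle and lens marker signal of dnmt3aa-/- replicate 1 at 1-2 cell was 54199, against 586 to 1573 on the WT arrays of that stage. Single arrays within a group of 3 were not screened for distance from the others.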

How the results depend on the processing

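The deposited value table gave the same counts and the same side of the threshold for all 338 named fold changes. Of these, 323 kept direction and call with 75th percentile scaling, 320 with quantile scaling, 323 without the filter, 327 with a strict filter and 299 with normexp. With normexp the called member probes in dnmt3aa-/- went from 68 to 38 at 1-2 cell and from 9 to 21 at 2 dpf, and in dnmt3bb.2-/- from 9 to 19 at 2 dpf. The cause was not tested. In WT between 5-somite and 1 dpf the direction turned for psmb6 (-0.27), psmb12 probe A (-0.0089) and psma6l (-0.19) with normexp and psmb12 probe A with quantile scaling (-0.16). The median of all probes moved by over 0.1 with normexp in dnmt3aa-/- at 1-2 cell (0.36) and in WT steps, by 0.38, -0.19 and -0.15 with the 75th percentile, by -0.16, -0.29, -0.24 and -0.23 with quantile scaling and by 0.23, -0.12 and -0.15 with normexp.

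Slide as a random block left 0 of 26 calls in dnmt3aa-/- at 5-somite, where arrays of a slide correlated at 0.73. It could not be fitted for dnmt3aa-/- at 1-2 cell and 1 dpf or dnmt3bb.2-/- at 5-somite. Slide as a fixed term, chosen after seeing the data as was the fit of the mutants against each other, gave 20, 19 and 1 calls in dnmt3bb.2-/- at shield, 1 dpf and 2 dpf, and could not be fitted at 5-somite. The count with this term at 1-2 cell is not given here.

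The replicate numbers of the labels did not pair the arrays, since in none of the 14 comparisons were all 3 correlations over 0.1. With the replicate block, which leaves fewer degrees of freedom, the counts in dnmt3aa-/- from shield to 2 dpf were 1, 0, 0 and 1, and in dnmt3bb.2-/- from 1-2 cell to 2 dpf 26, 19, 6, 16 and 1. The dnmt3aa-/- count at 1-2 cell with this block is not given here.

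Leaving out each array gave, in dnmt3aa-/- from 1-2 cell to 2 dpf, 56 to 75, 1 to 11, 2 to 63, 4 to 25 and 7 to 10 calls, and in dnmt3bb.2-/- 40 to 66, 28 to 33, 8 to 15, 20 to 24 and 1 to 5. In the WT steps no count moved by over 1.5 times. Fits without 1 array also have fewer degrees of freedom, so fewer calls do not by themselves mean smaller log2 differences. Dim probes limit what can be read. The psmb11a, psmb11b and psmb13a probes never rose above background, and psmb9a, psmb12, psma6l and psmc4 probe B fell below it in some groups.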
